A study of Mus musculus with 9 samples.

Results

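The PGC1 coactivators and the factors of mitochondrial biogenesis that work with them were examined in pancreatic islets of mice lacking *Raptor* in beta cells. They were 9 genes, *Ppargc1a*, *Ppargc1b*, *Esrra*, *Esrrg*, *Nrf1*, *Tfam*, *Gabpa*, *Ppara* and *Yy1*, taken by symbol from the 18193 genes that the array's annotation pairs with at least 1 probe set. Every probe set paired with exactly 1 gene symbol, that of one of these genes, was used, which gave 26 of the 45037 probe sets. A further 0 probe sets were paired with one of these symbols together with another gene. The number of probe sets per gene ran from 1 for *Ppargc1b* to 5 for *Ppargc1a*.

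The PGC1 coactivators bind no DNA themselves. They dock on transcription factors and raise transcription of nuclear genes for mitochondria. The factors include the oestrogen-related receptors, the nuclear respiratory factors NRF1 and GABP, the fatty acid sensor PPARα and YY1. The genes include *Tfam*, whose product packages mitochondrial DNA and helps to start its transcription. In islets, PGC1α is known from rodent work in which a raised level lowered insulin secretion, and mitochondrial ATP production links glucose to that secretion. mTORC1, the kinase complex that needs the scaffold protein RAPTOR, is known in other tissues to act on PGC1α together with YY1.

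RNA came from islets of male mice 8 weeks old, labelled C57BL/6, and was hybridised to 9 Affymetrix mouse genome arrays. The 4 KO arrays held βRapKO islets (*Raptor* flox/flox with Cre under a rat insulin promoter, RIP-Cre), and the 5 WT arrays held islets of flox/flox littermates without Cre, so both groups carried the floxed alleles. Each array read a pool of handpicked islets from 5 animals of 1 genotype. Cre was present only in KO mice and came from a line of mixed background, only partly C57BL/6J, whereas the floxed line was C57BL/6J, so the deletion cannot be told apart from the transgene and its flanking genome. The comparison asked how transcripts differ in islets whose beta cells have lost mTORC1. Values are log2 signals, given as mean ± SD over arrays, and differences are KO minus WT on the log2 scale with their SE. A gene was represented by its brightest probe set and called at a limma adjusted p under 0.05 over the 13644 genes left after the dimmest 0.25 of genes was dropped. The probe sets were also tested singly, with no filter, over all 34945 that are paired with 1 gene. A p-value here weighs a difference against how much the pools of a genotype vary, and the few arrays limit the precision.

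Over all genes 6.3% were called, 3.67% higher and 2.63% lower in KO islets, or 501 and 359 genes, and 214 and 260 once each array was centred on its median. The median difference over all genes was 0.04. *Rptor*, the targeted gene, differed by -0.72 ± 0.17 in its brightest probe set (limma adjusted p = 0.041) and by -0.41 and 0.65 in its other, dim probe sets. In the brightest the groups did not overlap, but the lowest WT array (replicate 4, 9.216) and the highest KO array (replicate 3, 9.213) all but met. The *Rptor* call was lost when 1 array was dropped in 7 of 9 cases, all but WT replicate 4 and KO replicate 3. Over the 9 cases the difference ran from -0.87 to -0.63. The call depended on other settings too. It was lost with no filter (limma adjusted p = 0.0786), with the unpaired test of the methods (adjusted p = 0.0670) and with the probe sets averaged (-0.16, limma adjusted p = 0.888). Where the *Rptor* probe sets lie relative to the deleted part is not known here. The beta cell markers were bright in every array, with a mean over the 8 tested markers of 13.8 to 14.0 in WT and 13.2 to 13.4 in KO islets, and 5 of the 8 were called lower. In whole islets, fewer cells of a type and less RNA per cell cannot be told apart.

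Of the 9 genes, *Ppargc1a*, which encodes PGC1α, was the 1 whose difference passed the test. The arrays read RNA, so the value is of the transcript and not of the PGC1α protein. It was higher in KO islets in each of its 5 probe sets, by 1.16 to 1.52 on the log2 scale, and in none of the 5 did a KO array overlap a WT array. The gene lies at chr5:51454249-52115853 of GRCm38.p6. The 250 bases before the RefSeq transcription start listed for it (chr5:51567726-51567975, minus strand) are shown because this is the member that rose. This start lies inside the gene's listed span, and which start or exon the transcripts read by each probe set come from is not known here. The capitals mark the letters ACGTCA, the reverse complement of the TGACGT core of a cAMP response element, which start at -50.
Ppargc1a upstream sequence: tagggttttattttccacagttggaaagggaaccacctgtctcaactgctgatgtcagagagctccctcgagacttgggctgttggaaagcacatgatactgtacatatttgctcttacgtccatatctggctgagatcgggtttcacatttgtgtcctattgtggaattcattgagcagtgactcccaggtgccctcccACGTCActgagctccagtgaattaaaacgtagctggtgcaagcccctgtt
This core occurred on either strand in 7.51% of all 32851 RefSeq promoter windows (250 bases before to 50 after a start) and in 1 of the 12 windows of the 9 genes. The match is a description of letters and shows no binding. The *Ppargc1a* window was 48.7% G and C, against 52.7% for the median promoter and 44.7% to 81% over the 12 windows. The lowest were 1 of the *Esrrg* windows (44.7%) and 1 of the *Nrf1* windows (46.3%).

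The brightest *Ppargc1a* probe set, 1456395_at, read 7.80, 7.14, 6.93, 7.50 and 6.84 in the 5 WT arrays and 8.75, 8.88, 8.93 and 7.99 in the 4 KO arrays. All KO arrays were above all WT arrays, and KO replicate 4 was the KO array closest to WT. The WT mean was 7.24 ± 0.40 (SD, n = 5) and the KO mean 8.64 ± 0.44 (SD, n = 4), giving a difference of 1.40 ± 0.26 with a 95% confidence interval of 0.82 to 1.97, or 2.63-fold (limma adjusted p = 0.0162 over all genes). By the size of its rise *Ppargc1a* stood at rank 147 among all tested genes and at rank 58 among the 501 called higher. When each array was dropped in turn, the call held in 6 of 9 cases and was lost without KO replicate 1, 2 or 3 (1.36, 1.31 and 1.30, with limma adjusted p of 0.0559, 0.0514 and 0.0540).

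The other 4 probe sets gave the same order of the groups. Probe set 1434099_at had the tightest groups, with 6.85, 6.29, 6.93, 6.81 and 7.04 in WT and 8.60, 8.11, 8.49 and 8.00 in KO arrays, a difference of 1.52 ± 0.20 or 2.86-fold (limma adjusted p = 0.0156 over all probe sets). Probe set 1434100_x_at read 6.79, 6.50, 6.17, 7.31 and 7.11 in WT and 8.38, 8.23, 8.63 and 7.84 in KO arrays (difference 1.49 ± 0.27, limma adjusted p = 0.0472). These were the 2 of the 26 probe sets called in the test of single probe sets, in which 0.97% of all probe sets were called. Probe set 1460336_at read 7.57, 7.41, 6.90, 7.08 and 6.72 in WT and 8.55, 8.93, 8.98 and 7.80 in KO arrays (difference 1.43 ± 0.29, limma adjusted p = 0.0691). The dimmest, 1437751_at, read 6.12, 6.69, 6.80, 6.56 and 6.75 against 7.32, 8.06, 8.25 and 7.36 (difference 1.16 ± 0.25, limma adjusted p = 0.0805). KO replicate 4 was the lowest KO array in 4 of the 5 probe sets, while the order of the WT arrays changed from one probe set to another. All 5 read the same pools and share their target gene, so they are repeated readings and not replicates.

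**Figure D1:**
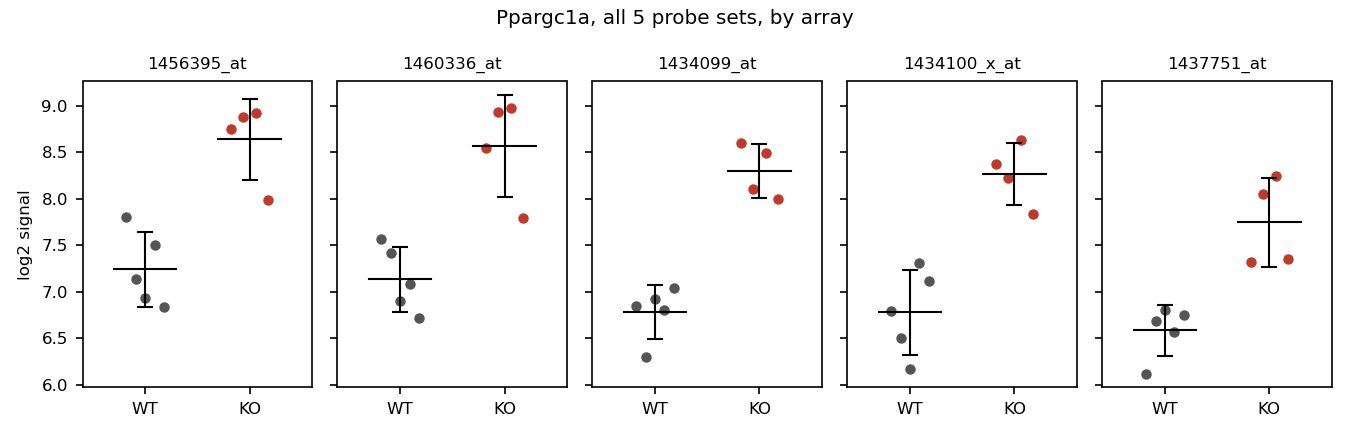
Log2 signal of the 5 *Ppargc1a* probe sets (1 panel each) in 5 WT and 4 KO arrays. Points are arrays and bars the mean with SD, and in every panel all KO points lie above all WT points.

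*Ppargc1b*, the paralogue that encodes PGC1β, did not share this rise. Its single probe set read 8.23, 8.04, 7.74, 7.59 and 7.64 in WT and 7.51, 8.36, 6.97 and 8.08 in KO arrays. The KO arrays lay both above and below the WT range, with a KO SD of 0.62 against a WT SD of 0.28. The difference was -0.12 ± 0.28 (limma adjusted p = 0.862), and its interval of -0.74 to 0.51 leaves room for changes either way.

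Whether the paralogues moved unequally was tested on their log2 ratio within each array, from which the array's overall brightness cancels. Only the change of this ratio between groups can be read, since probe sets differ in how brightly they report a transcript. The ratio of *Ppargc1a* to *Ppargc1b* averaged -0.60 ± 0.34 over the WT arrays (SD, n = 5) and 0.91 ± 0.89 over the KO arrays (SD, n = 4), a shift of 1.51. The exact two-sided permutation test gave p = 0.00794, the smallest that the 126 splits of 9 arrays allow, and 0.0159 after adjustment over the 2 ratios tested. The groups did not overlap, but the highest WT array (replicate 4, -0.0913) and the lowest KO array (replicate 4, -0.0891) all but met.

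The oestrogen-related receptors ERRα (*Esrra*) and ERRγ (*Esrrg*) are orphan nuclear receptors that recruit PGC1 coactivators to genes of oxidative metabolism, and ERRγ is known for its part in the maturation of beta cells. In their brightest probe sets neither was called. *Esrra* read 8.31, 8.49, 8.92, 8.63 and 8.55 in WT and 8.71, 8.54, 8.61 and 8.93 in KO arrays, a difference of 0.12 ± 0.14 (interval -0.19 to 0.43, limma adjusted p = 0.682). *Esrrg* read 9.32, 9.20, 9.49, 9.42 and 9.05 in WT and 9.01, 9.36, 9.28 and 9.03 in KO arrays, a difference of -0.12 ± 0.12 (interval -0.40 to 0.15, limma adjusted p = 0.619). In both genes the KO arrays lay inside or at the edge of the WT range. The within-array ratio of *Esrra* to *Esrrg* shifted by 0.24, and its groups overlapped (exact two-sided permutation p = 0.222). With all probe sets of a gene averaged, the shift turned to -0.27 and the *Esrrg* difference to 0.34, neither past its test.

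The probe sets of *Esrrg* did not read alike. The second brightest, 1457896_at, differed by -0.34 ± 0.18 (limma adjusted p = 0.487). The dimmest, 1421747_at, read 5.91, 4.50, 4.75, 3.84 and 3.63 in WT and 6.19, 6.02, 5.73 and 6.06 in KO arrays, a difference of 1.47 ± 0.43 that did not pass the test over all probe sets (limma adjusted p = 0.190). It belonged to the lowest 0.25 of probe sets by signal, where the spread between arrays is widest: the median within-group SD was 0.832 in the dimmest decile of tested genes and 0.129 in the brightest. WT replicate 1 overlapped the KO arrays there. The second *Esrra* probe set differed by 0.02 ± 0.25.

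PPARα (*Ppara*) switches on genes of fatty acid oxidation and is a classic partner of PGC1α. Its transcript was near the dim end of the array, and its signals were too scattered for a statement on direction. The brightest probe set read 7.55, 5.10, 6.99, 3.80 and 5.33 in WT and 6.02, 6.86, 6.32 and 5.70 in KO arrays. The WT arrays alone spanned the whole KO range, and the difference of 0.47 ± 0.71 had an interval of -1.13 to 2.07 (limma adjusted p = 0.764). Probe set 1439675_at read 4.07, 2.85, 3.99, 2.06 and 5.54 in WT and 5.87, 6.51, 5.58 and 6.82 in KO arrays, without overlap, for a difference of 2.49 ± 0.66 (limma adjusted p = 0.149). Its highest WT array (replicate 5) and lowest KO array (replicate 3) nearly met, and the probe set lay among the lowest 0.25 by signal. The remaining probe set, the dimmest of the 26, differed by -0.04 ± 1.07.

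The DNA-binding partners *Nrf1*, *Gabpa* and *Yy1* and the mitochondrial factor *Tfam* had small spreads between arrays in their brightest probe sets. NRF1 and GABP (whose DNA-binding subunit is the product of *Gabpa*) are the nuclear respiratory factors, and *Tfam* is the textbook target through which they reach mitochondrial DNA. Short stretches of the RefSeq promoters (GRCm38.p6) are shown because they hold letters that match the cores these factors are known to bind, with the match in capitals: CCGGAAG for the GABP (ETS) core and GCATGCG for the NRF1 core, or the reverse complements CTTCCGG and CGCATGC.
Tfam, GABP core, chr10:71238073-71238102, minus strand: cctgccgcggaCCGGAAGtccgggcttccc
Gabpa, GABP core, chr16:84835020-84835049, plus strand: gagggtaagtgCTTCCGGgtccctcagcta
Gabpa, NRF1 core, chr16:84835106-84835135, plus strand: ctgcactgtacGCATGCGtattctggcctg
Esrra, NRF1 core, chr19:6921824-6921853, minus strand: ccccctgttttGCATGCGcaggccggcccc
Searched on both strands, the NRF1 core occurred in 4 of the 12 promoter windows of the 9 genes (*Esrra*, *Esrrg*, *Gabpa* and *Ppara*) and in 3.58% of all windows. In *Gabpa* and *Ppara* the NRF1 letters overlapped with their own reverse complement. The GABP core occurred in 2 (*Tfam*, *Gabpa*; 8.86% of all), the YY1 core ATGGCGG in 2 (*Nrf1*, *Gabpa*; 4.05% of all) and the ERR core AAGGTCA in 0 (4.72% of all). Windows were listed for 8 of the 9 genes, with 4 for *Esrrg* and 2 for *Nrf1*.

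*Gabpa* was the 1 other gene of the 9 whose groups did not overlap in the brightest probe set, where 12.5% of all tested genes had no overlap. It read 10.61, 10.36, 10.39, 10.57 and 10.35 in WT and 10.94, 10.69, 10.69 and 10.87 in KO arrays. The difference was 0.34 ± 0.10 or 1.27-fold, with an interval of 0.12 to 0.56, and did not pass the test (limma adjusted p = 0.0789). It passed in 2 of 17 other settings, with the dimmer genes up to the median left out (limma adjusted p = 0.0432) and with a variance that follows the signal (limma adjusted p = 0.0403). The second *Gabpa* probe set differed by 0.16 ± 0.14, with overlapping groups.

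*Nrf1*, *Tfam* and *Yy1* differed by less than the spread between arrays in their brightest probe sets. *Nrf1* read 8.85, 9.15, 8.94, 8.92 and 8.77 in WT and 9.002, 8.86, 8.72 and 8.94 in KO arrays, a difference of -0.04 ± 0.10 (limma adjusted p = 0.855). *Tfam* read 10.77, 10.52, 10.75, 10.67 and 10.77 in WT and 10.77, 10.70, 10.87 and 10.78 in KO arrays, a difference of 0.09 ± 0.09 (limma adjusted p = 0.623). The product of *Yy1* is a zinc finger factor that can activate or repress. *Yy1* read 11.65, 11.61, 11.63, 11.80 and 11.93 in WT and 11.89, 11.62, 11.68 and 11.90 in KO arrays, a difference of 0.05 ± 0.10 (limma adjusted p = 0.841). The intervals were narrow, from -0.28 to 0.19 for *Nrf1*, -0.11 to 0.28 for *Tfam* and -0.19 to 0.29 for *Yy1*.

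**Figure D2:**
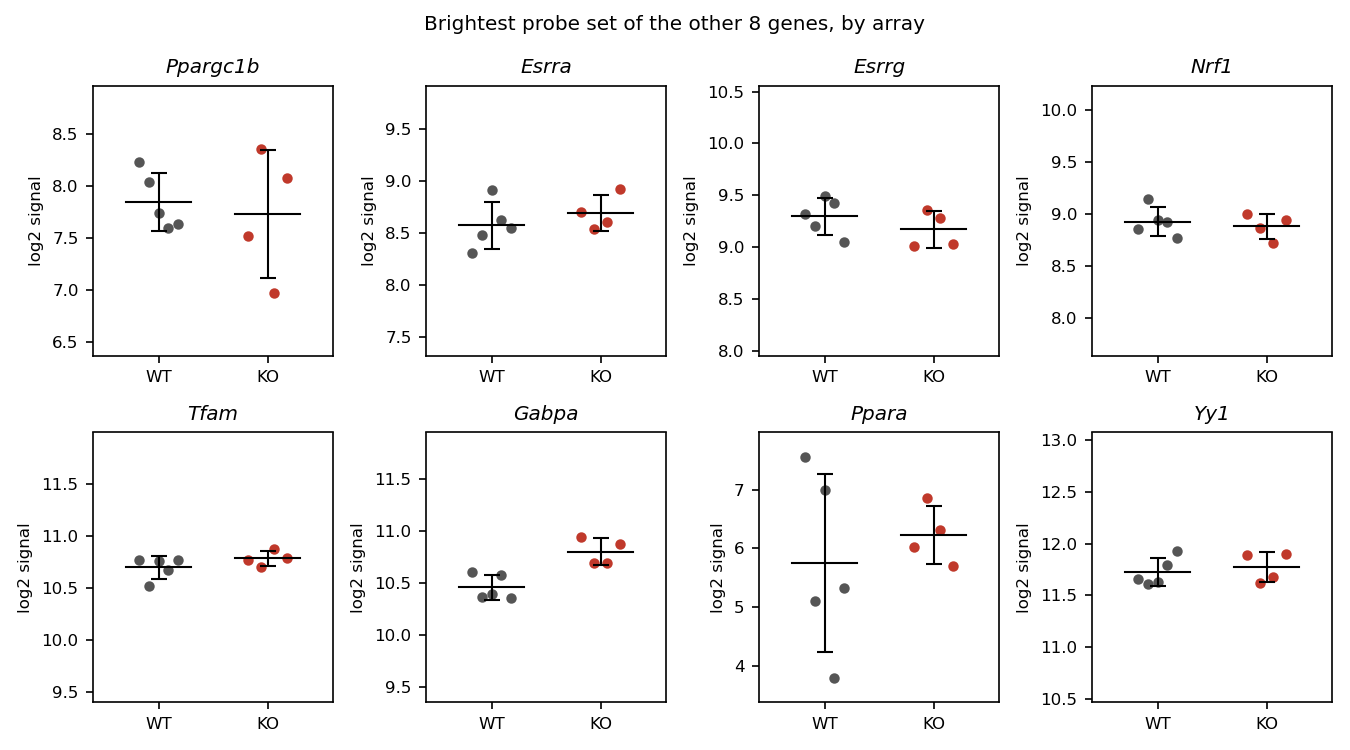
Log2 signal of the brightest probe set of the other 8 genes in 5 WT and 4 KO arrays, with the mean and SD; each panel has its own vertical scale. The groups are apart for *Gabpa* and overlap for the other 7, most widely for *Ppara*.

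Dimmer probe sets of these genes gave other values. For *Nrf1*, 1424787_a_at differed by -0.45 ± 0.30 and 1420978_at by 0.43 ± 0.22, opposite in sign, and neither was called (limma adjusted p = 0.592 and 0.477). The *Yy1* probe set 1435824_at read 10.40, 10.53, 10.20, 10.42 and 9.84 in WT and 10.61, 10.60, 10.70 and 10.65 in KO arrays. The KO arrays were all above the WT arrays by a small margin, with a difference of 0.36 ± 0.15 (limma adjusted p = 0.376). The second *Tfam* probe set differed by 0.28 ± 0.23, and the other 2 of *Yy1* by 0.02 ± 0.17 and 0.43 ± 0.40.

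Counted over the 26 probe sets, 19 had a higher and 7 a lower mean in KO islets, and the groups did not overlap in 8 (5 of *Ppargc1a* and 1 each of *Gabpa*, *Ppara* and *Yy1*), where 7.58% of all probe sets did not overlap. An unadjusted p under 0.05 was reached by 9 of the 26, against 12.9% of all probe sets. Of these 9, 5 belonged to *Ppargc1a*. At the level of genes, 1 of 9 was called (6.3% of all genes) and 2 of 9 reached an unadjusted p under 0.05 (21.8% of all genes). The median difference over the 9 genes was 0.09. The KO mean was below the WT mean in 3 of 9, against 43.8% of all genes. Outside *Ppargc1a*, limma called 0 of 8 genes and 0 of 21 probe sets (1 and 4 at an unadjusted p under 0.05). The shares called over all were 6.3% of genes and 0.97% of probe sets, so among so few a count of 0 is near the share. The unpaired test of the study's methods with Benjamini-Hochberg adjustment also called *Ppargc1a* alone among the 9 genes.

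**Figure D3:**
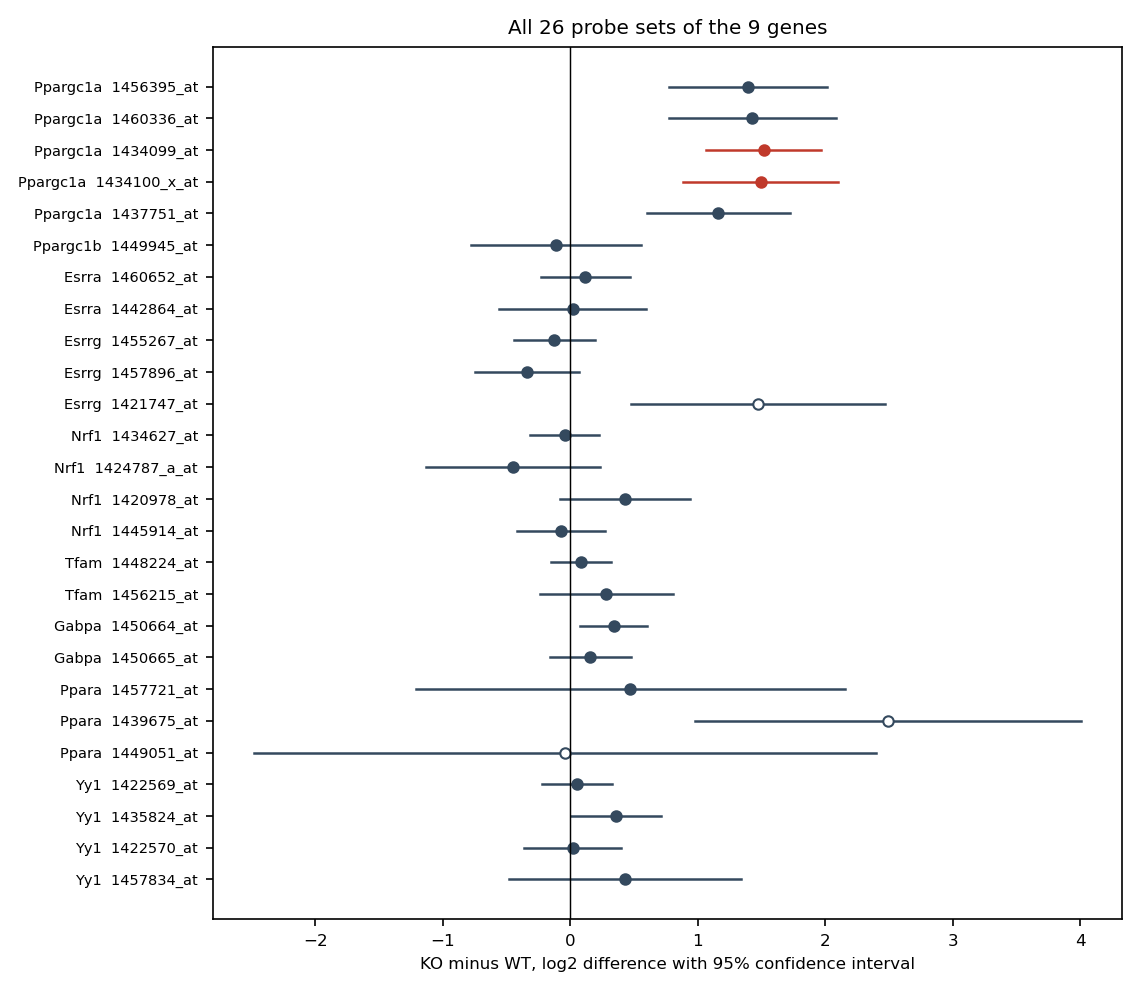
KO minus WT log2 difference with its 95% confidence interval for all 26 probe sets, brightest first within a gene; red marks an adjusted p under 0.05 and open circles the lowest 0.25 of probe sets by signal. The 5 *Ppargc1a* intervals lie to the right of 0, while the widest belong to *Ppara*.

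The wider pathway was described through 7 lists of 122 tested genes in all. In total 2 of these genes were called, both higher in KO islets, and the unpaired test of the methods called the same 2. Of the 21 tested regulators of PGC1 activity, 1 was called, against the 6.3% called among all genes. It was *Lpin1*, whose product lipin 1 is both a phosphatidate phosphatase and a coactivator that binds PGC1α and PPARα. *Lpin1* read 11.06, 11.36, 11.09, 10.95 and 11.09 in WT and 12.29, 11.79, 12.24 and 12.01 in KO arrays. All KO arrays were higher, by 0.97 ± 0.13 or 1.97-fold (limma adjusted p = 0.00447), and the other *Lpin1* probe set differed by 1.18 ± 0.20, also without overlap. The call held in 16 of 17 other settings. Of the 21 regulators 12 had a lower and 9 a higher KO mean, with a median of -0.03.

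Among the 18 tested PPARα targets of fatty acid use 1 was called (6.3% of all genes), and the median difference was 0.14. The KO mean was lower in 4 of the 18, against 43.8% of all genes, and the groups did not overlap in 4, against 12.5%. *Plin2*, which coats lipid droplets, read 9.83, 9.58, 9.72, 9.61 and 9.77 in WT and 10.11, 10.08, 10.04 and 10.17 in KO arrays. The groups were apart, and the difference was 0.40 ± 0.08 or 1.32-fold (limma adjusted p = 0.0295). Its call was close to the threshold and held in 7 of 17 other settings. The *Plin2* call was lost without WT replicate 2 or 4 or any 1 of the KO replicates (0.37 to 0.42). Centring each array on its median also lost it (0.36, limma adjusted p = 0.139). So did no filter, averaged probe sets and a replicate block (limma adjusted p = 0.0597, 0.0730 and 0.130). With probe sets averaged, 0 of the 17 PPARα targets then tested were called, and their median was 0.075. In 3 more targets, chosen after their values were seen, the groups did not overlap but the test was not passed. These were the fatty acid transporter *Cd36* (0.87 ± 0.22, limma adjusted p = 0.0536), *Pdk4*, whose kinase shuts the pyruvate dehydrogenase complex (1.01 ± 0.27, limma adjusted p = 0.0645), and *Angptl4*, an inhibitor of lipoprotein lipase (1.68 ± 0.52, limma adjusted p = 0.0955). For *Cd36* the highest WT array (7.624) and the lowest KO array (7.643) all but met. *Angptl4* was dim and scattered in WT, from 4.86 to 7.44, with a lowest KO array of 7.57. *Angptl4* was called only with a variance that follows the signal. *Cd36* was called there and without WT replicate 5, and *Pdk4* in both and with the lowest 0.5 of genes left out. PPARα is not the only factor that drives these genes, and *Cd36* is also made by endothelial cells and macrophages.

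The lists nearest to the mitochondrion itself held no called gene, in lists of 9 to 22 genes, where 6.3% of all genes were called and 21.8% had an unadjusted p under 0.05. Among 22 respiratory targets of the ERR and NRF factors, from cytochrome c to citrate synthase, 0 were called by limma and 1 had an unadjusted p under 0.05. Their differences ran from -0.11 to 0.26 with a median of 0.05, and the gene with the lowest p was *Atp5o* of the ATP synthase (0.26 ± 0.11, limma adjusted p = 0.184). Mitochondrial transcription and replication had 0 called of 19 and a median of -0.01. The lowest p there was that of *Polg*, the catalytic subunit of the mitochondrial DNA polymerase, at 0.38 ± 0.10 without overlap (limma adjusted p = 0.0673), while its other probe sets differed by 0.38 and -0.59. An unadjusted p under 0.05 was reached by 1 gene of these 19.

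Protein import and folding had 0 called of 17, with a median of 0.03 and 0 genes at an unadjusted p under 0.05. Its lowest p was that of *Timm50*, a receptor of the inner membrane translocase (0.23 ± 0.11, limma adjusted p = 0.265), whose other probe sets differed by 0.38 and -0.25. Mitochondrial fusion and fission had 0 called of 9, 0 at an unadjusted p under 0.05 and a median of 0.06, and its lowest p was that of the fusion gene *Mfn2* (-0.17 ± 0.09, limma adjusted p = 0.294). Of the 16 relatives and partner factors of the coactivators 0 were called and 1 had an unadjusted p under 0.05, with a median of 0.06. That gene was *Pprc1*, which encodes the third member of the PGC1 family, at 0.34 ± 0.11 (limma adjusted p = 0.104, groups overlapping). These medians stood beside 0.04 over all genes tested.

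**Figure D4:**
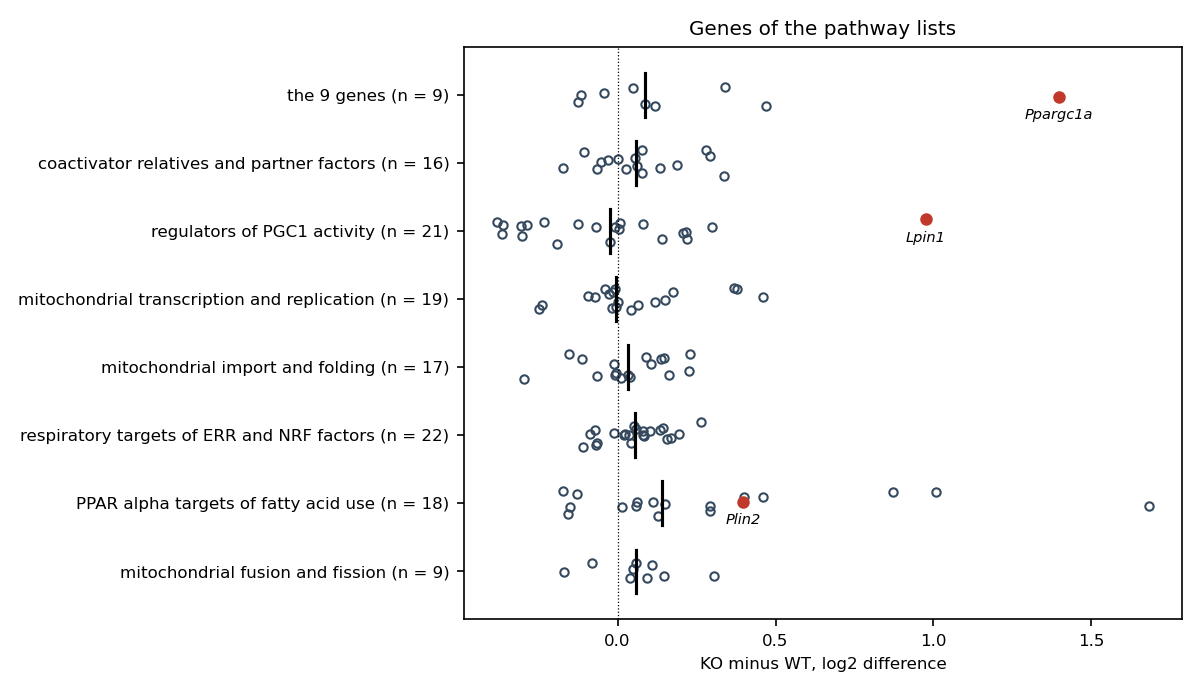
KO minus WT log2 difference of each tested gene of the 9 genes and the 7 pathway lists; red points are genes with an adjusted p under 0.05 and black bars list medians. The medians lie between -0.03 and 0.14, and the named points *Ppargc1a*, *Lpin1* and *Plin2* are the 3 that were called.

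The genes whose signals followed *Ppargc1a* most closely over the 9 arrays were *Arg1*, the arginase of the urea cycle (Pearson's r = 0.98), *H13*, a signal peptide peptidase (r = 0.961), and *Cygb*, cytoglobin, an oxygen-binding protein known from fibroblast-like cells (r = 0.96). These values describe likeness over arrays that fall into 2 genotypes and carry no test. Each of the 3 was itself higher in KO islets, by 0.90 ± 0.15, 0.66 ± 0.13 and 1.37 ± 0.31 (limma adjusted p = 0.0116, 0.0239 and 0.0370). The call of *H13* was lost without KO replicate 1, 2 or 3 (0.65, 0.57 and 0.67) and with its 6 probe sets averaged (0.25). That of *Cygb* was lost when 1 array was dropped in 7 of 9 cases, all but WT replicate 1 and KO replicate 4 (1.22 to 1.44 in the 7). Over all other settings in which it was tested, *Cygb* was called in 5 of 16, *H13* in 12 of 17 and *Arg1* in 16 of 17.

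The mean log2 signals of stromal, endothelial, glial and ductal markers were higher in KO islets, without overlap. Those of acinar, alpha and delta cell, and macrophage and leukocyte markers overlapped between the groups. The summed signal of the macrophage and leukocyte markers did not overlap, at 12.26 to 12.38 in WT and 12.46 to 12.95 in KO arrays on the log2 scale. The 16 stromal markers had a mean of 7.94 to 9.03 in WT and 9.31 to 9.86 in KO arrays, without overlap, their summed signal was 13.4 to 14.3 against 14.5 to 15.1 on the log2 scale, and 8 of the 16 were called higher, where 3.67% of all genes were. That count was 5 of 16 with each array centred on its median, 4 of 16 with the unpaired test of the methods, and 3 of the 14 that passed the filter with a gene's probe sets averaged. No stromal marker was at the floor of the array. Within the groups neither of the 2 *Ppargc1a* probe sets plotted kept the order of this mean. For 1434099_at, the WT arrays with the lowest and the highest stromal mean (replicates 2 and 5) also had the lowest and highest signal (6.29 and 7.04). KO replicates 3 and 1, with the lowest and the highest KO stromal mean, read 8.49 and 8.60 there. For 1456395_at, WT replicates 2 and 5 read 7.14 and 6.84, the latter the lowest WT signal. KO replicates 3 and 1 read 8.93 and 8.75 there, the former the highest KO signal. Acinar markers varied widely inside both groups, from a mean of 9.14 to 12.97 in WT and of 8.71 to 13.09 in KO arrays. KO replicate 3, the array with the lowest acinar mean, and KO replicate 2, with the highest, read 8.93 and 8.88 in 1456395_at and 8.49 and 8.11 in 1434099_at. Of the WT arrays, replicate 3 had the lowest and replicate 4 the highest acinar mean. They read 6.93 and 7.50 in 1456395_at and 6.93 and 6.81 in 1434099_at. A link between acinar cells and *Ppargc1a* was not tested.

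For other lists of cell type markers the shares over all genes were 6.3% called and 21.8% at an unadjusted p under 0.05. By limma, 0 of 10 endothelial markers (2 at an unadjusted p under 0.05), 1 of 4 Schwann and glial, 0 of 4 ductal (2 unadjusted), 0 of 9 acinar (0 unadjusted), 1 of 6 alpha and delta cell and 1 of 7 macrophage and leukocyte markers were called, each called one higher in KO islets. The alpha and delta cell call was lost with median centring, and the macrophage call with median centring, the unpaired test of the methods or averaged probe sets. The mean level of the endothelial, glial and ductal markers did not overlap between the groups, at 9.56 to 9.68 against 9.79 to 10.15, 5.63 to 6.71 against 7.01 to 7.32 and 8.22 to 9.06 against 9.24 to 9.74. The glial and ductal means each rested on 4 tested markers of 7 listed. Some of these markers were dim, down to 3.60 (glial) and 1.66 (ductal) in single WT arrays. On the summed signal the ductal groups all but met, at 13.25 to 13.46 against 13.48 to 13.78. The part of stromal or other cells in the higher *Ppargc1a*, *Lpin1* and *Plin2* signals was not tested.

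**Figure D5:**
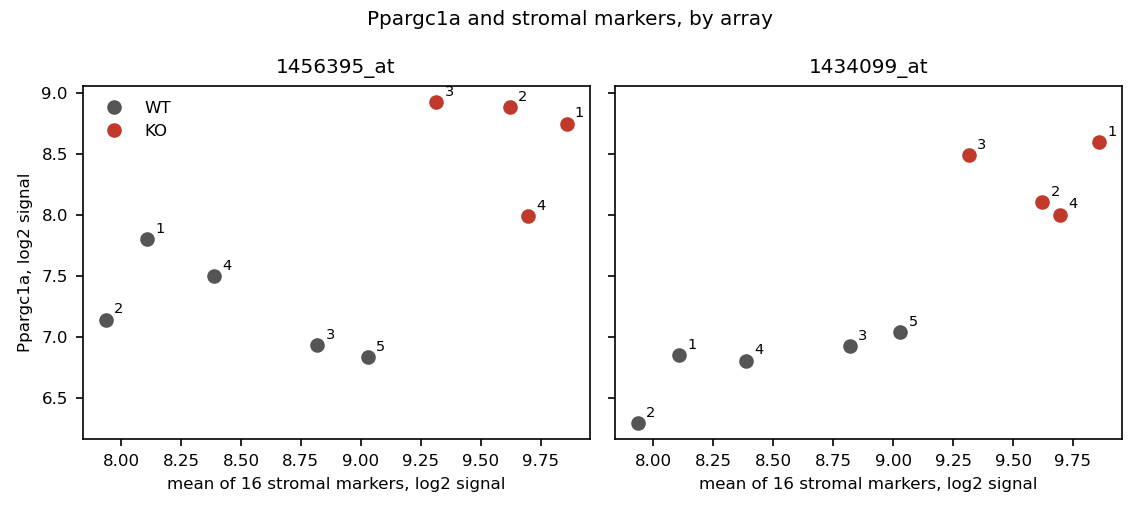
Log2 signal of *Ppargc1a* in each array (vertical) against the mean log2 signal of 16 stromal markers (horizontal) for probe sets 1456395_at and 1434099_at, with replicate numbers beside the points. KO and WT arrays are apart on both axes, and inside the groups the order differs between the 2 probe sets.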

How the data were processed

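Islet RNA from 5 WT and 4 KO pools was read on Affymetrix mouse genome arrays, and groups and replicate numbers came from the sample titles. The authors deposited 1 log2 signal per probe set and array. Their methods name Genespring, and how probes were summarised is not given in the sources used here. On every array the trimmed mean of the linear signal was 497.1 to 497.7, and 43 to 107 values lay at a floor of 0. No batch was given by the labels used here.

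The values were used as deposited. Of 45037 probe sets, 34945 were paired with 1 gene by the platform annotation, 932 with several and 9160 with none here. The brightest probe set by mean stood for a gene, and the lowest 0.25 of genes was left out. The groups were compared in R 4.3.3 with limma 3.58.1 (two-sided, no covariate, Benjamini-Hochberg, threshold 0.05), by gene and by probe set, and 2 within-array ratios by exact permutation. The scripts were tested on simulated data. Alternatives were mean over probe sets, other filters, median centring, quantile normalization, the methods' t-test, an intensity trend, a replicate block and leaving out each array.

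The 9 genes and the lists were chosen with earlier results of these data known. Named genes were the 9, *Rptor*, of each list the called genes (up to 4) or the 1 with the lowest p, and the 3 most like *Ppargc1a*. Outside this rule, the PPARα targets *Cd36*, *Pdk4* and *Angptl4* were named after their values were seen. Of the listed genes, 1 each of 3 mitochondrial or regulator lists and 4 PPARα targets were not paired with a probe set of 1 gene here, and 2 PPARα targets were under the filter. Promoters came from RefSeq (GRCm38.p6), with 8 of 9 genes matched.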

Additional observations from a re-analysis of the deposited data

How the results depend on the processing

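*Ppargc1a* was higher in KO islets in all 16 alternatives in which it was tested (1.29 to 1.61, the range also of the fits that left out 1 array), and it lay under the filter when the lowest 0.5 of genes was left out. The deviations of same-numbered WT and KO arrays from their group means had r = -0.04, 0.09, 0.12 and -0.03. For WT replicates 2 and 3 the same-numbered KO array had the highest r of the KO arrays, and for WT replicates 1 and 4 another did. These few values cannot decide whether the numbers pair the samples. With the replicate block, *Ppargc1a* read 1.29 (limma adjusted p = 0.101), and 0 of the 9 genes, 0 list genes and 0 of the 26 probe sets were called, with 61 genes and 0 probe sets called over all (2658 and 3797 at an unadjusted p under 0.05, 2 of the 9 genes, 8 list genes and 7 of the 26 probe sets). *Lpin1* lost its call only there (0.97, limma adjusted p = 0.0741). Of all genes 860 were called, 317 with the mean over probe sets, 452 with no filter, 474 with median centring and 372 to 800 leaving out 1 array. Of the 9 genes 2 were called with an intensity trend (*Gabpa* joined), and 0 to 1 leaving out 1 array. Of list genes 2 were called, 1 with the mean over probe sets, 1 with no filter, 1 with median centring, 4 with the lowest 0.5 left out, 5 with an intensity trend and 1 to 4 leaving out 1 array. Of all probe sets 339 were called, 195 with median centring, 601 with the lowest 0.25 left out, 1051 with an intensity trend and 93 to 192 leaving out 1 array. Of the 26 probe sets 2 were called, 1 with median centring, 1 with quantile normalization, 5 with the lowest 0.25 left out, 4 with an intensity trend and 0 to 2 leaving out 1 array. All called ones were of *Ppargc1a*. The ratio of *Ppargc1a* to *Ppargc1b* kept its sign (1.16 to 1.84 leaving out 1 array), with an unadjusted exact p of up to 0.0286; that is the smallest p with 4 arrays a group and would not pass after adjustment over the 2 ratios. The ratio of *Esrra* to *Esrrg* turned to -0.27 with the mean over probe sets (exact p = 0.270). No called value changed sign, but uncalled ones did. With the mean over probe sets *Esrrg* turned to 0.34. Leaving out 1 array gave -0.32 to 0.14 for *Ppargc1b*, -0.085 to 0.010 for *Nrf1* and -0.018 to 0.92 for *Ppara*. Of single probe sets, 1442864_at (*Esrra*) turned to -0.022 with median centring, -0.019 with quantile normalization and -0.048 with the block (-0.18 to 0.18 leaving out 1 array), 1422570_at (*Yy1*) to -0.020, -0.056 and -0.051 (-0.094 to 0.14), and 1449051_at (*Ppara*) to 0.48 with the block (-0.82 to 0.48). Dim probe sets, with the widest spread, limit what can be said of *Ppara* and of 1 *Esrrg* probe set. The causes of these changes were not tested.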
